A study of Mus musculus with 6 samples.

Results

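The nuclear genes of the 5 complexes of oxidative phosphorylation were compared in peritoneal cavity (PC) B1a cells of mice with and without CD25. A gene was taken when its name on the array started with Nduf (complex I), was Sdha, Sdhb, Sdhc or Sdhd (complex II), started with Uqcr or was Cyc1 or Cycs (complex III), started with Cox4, Cox5, Cox6, Cox7 or Cox8 (complex IV), or started with Atp5 (complex V). This gave 92 of 36163 gene names, carried by 130 of 55681 probes. There were 42 genes for complex I, 4 for complex II, 10 for complex III, 19 for complex IV and 17 for complex V. Each gene was read from 1 probe, the one with the highest mean log2 signal over the 6 arrays.

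The data are 6 one-colour arrays of total RNA from sorted B1a cells of 7-week-old female C57Bl/6 mice, with 3 arrays for each genotype. The case mice were p40-/-CD25-/- and the control mice were their p40-/-CD25+/- littermates. CD25 is the IL-2 receptor α chain (Il2ra), and p40 is the subunit shared by IL-12 and IL-23 (Il12b). Both groups lacked p40, and the control mice carried 1 working copy of CD25, so neither group is a wild type. Both deletions are present in all cells of the mouse, and the p40-/-CD25-/- line is used as a model of autoimmune cholangitis. The labels describe each sample as RNA pooled from at least 3 mice, so the 3 arrays of a genotype are separate pools and the spread between single mice was not measured.

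Oxidative phosphorylation takes place at the inner mitochondrial membrane. Complex I oxidises NADH and complex II oxidises succinate, and both pass electrons to coenzyme Q. Complex III moves them on to cytochrome c, complex IV gives them to oxygen, and complex V, the ATP synthase, uses the proton gradient that complexes I, III and IV build up. Most subunits are encoded in the nucleus and imported, while a small set in complexes I, III, IV and V is encoded in mitochondrial DNA, and complex II is wholly nuclear. B1a cells are self-renewing B cells of the body cavities that make natural antibodies, and their respiration depends on this chain as in other lymphocytes.

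Values are log2 of the processed signal minus the 75th percentile of the array, so a value of 0 is the level of that percentile. The case arrays were dimmer than the control arrays. Their 75th percentile of the signal lay between 66.5 and 162, against 252 to 272 on the control arrays, and 39.7% to 45.9% of spots were well above background, against 47.2% to 50.6%. All 6 arrays lay on 1 slide with 1 scan date, and no spot was saturated. Il2ra was at 1.62, 1.13 and 1.35 in the control samples and -0.31, -0.59 and 0.86 in the case samples, a log2 difference of -1.38 ± 0.37 (SE, adjusted P = 0.121). Its probe was above background on all 6 arrays, and whether it lies in the deleted stretch is not given in the sources used here. Il12b, deleted in both groups, was dim but also above background on all 6 arrays, at -1.92, -2.01 and -2.25 in the control samples and -2.52, -1.91 and -1.80 in the case samples, and differed by -0.02 ± 0.22 (SE). Whether its probe lies in the deleted stretch is likewise not given, so neither probe checks the deletion. All 8 markers of B1a and B cells were above background on all 6 arrays. Of 8 T cell markers 6 were tested and 5 of those had a higher mean in the case samples. Their median difference was 0.54, with 3 higher at an unadjusted P of at most 0.05, and 2 of these by more than 2-fold. Of all genes 11.6% were higher at that P, and 3.52% passed both thresholds in either direction. In 2 of the 6 (33.3%) all case values lay above all control values, against 14.7% of all genes. Cd3e, 1 of these 2 and a chain of the T cell receptor complex, was between 0.26 and 0.51 on the control and between 0.75 and 1.16 on the case arrays. All 8 tested of 10 macrophage markers had a lower mean in the case samples, with a median difference of -0.27 and overlapping groups in each. At an unadjusted P of at most 0.05, 1 (12.5%) was lower, against 13.6% of all genes. It was lower by more than 2-fold, where the same 3.52% of all genes passed both thresholds. All 5 plasma cell markers, 4 of them above background on all 6 arrays, also had a lower mean, with a median difference of -0.52. In 2 the groups did not overlap, against 21.6% of all genes in that direction. At that P 2 were lower, against 13.6% of all genes, and 1 of these by more than 2-fold, against the same 3.52%. Of 5 NK cell markers 2 were tested, both with a higher mean (median difference 0.80), and of 7 granulocyte and mast cell markers 3, with a median difference of -1.27. In each of these 2 lists 1 tested marker was above background on all 6 arrays.

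Of the 92 genes, 87 were well above background on all 6 arrays and were tested, 41 in complex I, 4 in complex II, 10 in complex III, 15 in complex IV and 17 in complex V. The other 5, Ndufa4l2, Cox6a2, Cox7b2, Cox8b and Cox8c, did not reach this level on all 3 arrays of either genotype. No gene of the 87 passed an adjusted P of 0.05 in limma, where 0.0384% of all 18235 genes tested did, and the smallest adjusted P was 0.119. With array weights 13 passed, all lower, where 4479 of all genes did, and after normexp background correction with the 75th percentile 40 passed as lower and 1 as higher, where 6469 of all genes passed. None passed the thresholds of the study, a fold of at least 2 together with P up to 0.05 before adjustment, which 3.52% of all genes passed.

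The direction was nearly uniform. In the case samples 83 of 87 genes (95.4%) had a lower mean, against 60.2% of all genes tested, and the median log2 difference, case minus control, was -0.21 against -0.12 for all genes. The share of all genes that were lower moved with their level. It was 80.9%, 80.6% and 79.4% at levels from 2 to 4, from 4 to 5 and from 5 to 6, which hold 13, 19 and 24 of the 87 genes, and 44.4% below 0, 68.1% from 0 to 2, 63.7% from 6 to 7, 34.4% from 7 to 8 and 6.15% above 8. The differences were small, with quartiles of -0.31 and -0.14. At an unadjusted P of at most 0.05, 15 genes (17.2%) were lower and 0 higher, where 13.6% of all genes were lower and 11.6% higher, so the share of lower genes was near the background in this fit. Over the 20 alternatives of the processing this count lay between 2 and 63. It was 2 (2.30%) without control 3, 4 (4.60%) without case 1 and 5 (5.75%) without control 1, where 6.03%, 9.93% and 9.22% of all genes were lower. It was 63 (72.4%) after normexp with the 75th percentile, 32 (36.8%) with array weights, 30 (34.5%) in the methods' t-test and 25 (28.7%) with a trend and robust estimation, where 27.9%, 26.0%, 13.0% and 16.4% of all genes were lower. The 3 case values lay below all 3 control values in 39 of 87 genes (44.8%), against 21.6% of all genes, and above them in 1, against 14.7%. On the case 2 array, the dimmest of the 6, 61 of the 87 genes had their lowest value, and without it the median was -0.15. Under quantile normalization the median was -0.11, close to the -0.08 of all genes, and 67 of 87 genes were lower. In bulk RNA of sorted cells, less RNA of a gene per cell and fewer cells that hold it cannot be told apart.

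**Figure D1:**
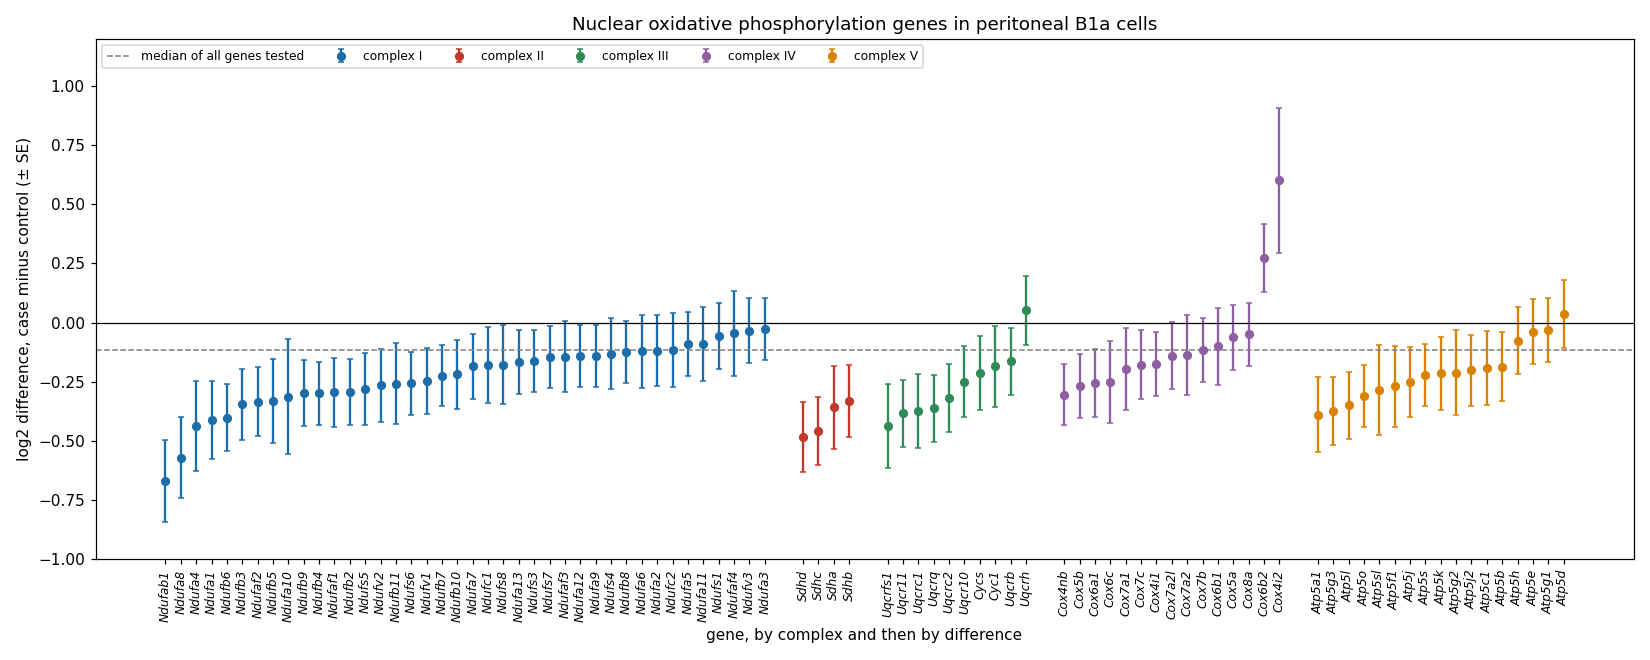
Log2 difference between case and control samples (3 arrays each) for 86 of the 87 genes tested, ordered by complex and then by size, with points for the fitted difference and bars for its SE. The 40 genes of complex I drawn and all 4 of complex II lie below 0, and Cox4i2 and Cox6b2 are the genes farthest above it; the dashed line is the median of all genes tested, at -0.12.

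Complex II had the lowest median of the 5 complexes, -0.41 over its 4 genes, and in each of the 4 every case value lay below every control value, against 21.6% of all genes. Sdhd, a membrane anchor (probe at chr9:50404630-50404689 in mm9), was at 4.83, 4.60 and 4.83 in the control samples and 4.33, 4.13 and 4.35 in the case samples. The difference was -0.48 ± 0.15 (SE, adjusted P = 0.131), or 1.40-fold lower. Sdhc, the other membrane anchor (probe at chr1:173059539-173059598), was at 3.62, 3.36 and 3.61 in the control samples and 3.12, 2.98 and 3.12 in the case samples, with a difference of -0.46 ± 0.14 (SE, adjusted P = 0.138). Both anchors were thus below an unadjusted P of 0.05, as were 13.6% of all genes in that direction, and neither passed the adjustment. Sdha, the flavoprotein that holds the succinate site (probe at chr13:74460310-74460369), was at 4.43, 4.31 and 4.37 in the control samples and 4.17, 3.69 and 4.18 in the case samples, and its difference of -0.36 ± 0.18 (SE, adjusted P = 0.237) leaned on case 2. Sdhb, the iron-sulfur subunit (probe at chr4:140535052-140535108), was at 5.68, 5.33 and 5.60 in the control samples and 5.21, 5.13 and 5.28 in the case samples, a difference of -0.33 ± 0.15 (SE, adjusted P = 0.218). The case 2 value was the lowest of the 6 in all 4 genes, and the groups were closest in Sdhb, where the lowest control value was 5.33 and the highest case value 5.28. All 4 differences stayed below 0 under each of the 20 alternatives, with a median of -0.22 after quantile normalization, but the number with an unadjusted P of at most 0.05 went from 2 to 1 there, with the deposited log2 values and without control 1, and to 0 without control 3. It rose to 3 in the methods' t-test, with array weights and without control 2, and to 4 with a trend and robust estimation and after normexp with the 75th percentile.

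Complex I had a median of -0.19, or -0.08 after quantile normalization and -0.49 after normexp with the 75th percentile. All 41 genes tested of this complex were lower, in a range from -0.67 to -0.03. Only 4 of them (9.76%) had an unadjusted P of at most 0.05, which is below the 13.6% of all genes, while the case values lay below all control values in 21 (51.2%), against 21.6% of all genes. The 2 genes with the largest decreases of all 87 were accessory subunits. Ndufab1, the acyl carrier protein of mitochondrial fatty acid synthesis that is also built into complex I, was at -0.16, -0.04 and 0.15 in the control samples and -0.89, -0.74 and -0.43 in the case samples. Its difference was -0.67 ± 0.17 (SE, adjusted P = 0.119), or 1.59-fold lower. Ndufa8, an accessory subunit on the outer side of the membrane, was at 3.26, 2.92 and 3.23 in the control samples and 2.63, 2.35 and 2.72 in the case samples, and differed by -0.57 ± 0.17 (SE, adjusted P = 0.130). The 3 case values of both genes lay clear of the control values. Ndufa1 and Ndufb6, accessory subunits of the membrane arm, were the other members of this complex at that P, with differences of -0.41 ± 0.17 (SE, adjusted P = 0.185) and -0.40 ± 0.14 (SE, adjusted P = 0.155). Ndufa4, now assigned to complex IV, differed without overlap by -0.44 ± 0.19 (SE, adjusted P = 0.204).

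The 7 nuclear core subunits of complex I, which carry the flavin and the iron-sulfur clusters, had a median difference of -0.18, the 29 accessory subunits -0.22 and the 4 Ndufaf assembly factors -0.22. No core subunit had an unadjusted P of at most 0.05. Ndufv1 and Ndufv2, of the NADH-oxidising tip, differed by -0.25 and -0.26 and did not overlap between groups, and Ndufs1, the largest core subunit, differed by -0.06 ± 0.14 (SE, adjusted P = 0.798) and did. At the other end Ndufa3 was at 6.84, 6.74 and 6.90 in the control samples and 6.74, 6.82 and 6.85 in the case samples, a difference of -0.03 ± 0.13 (SE, adjusted P = 0.905), and Ndufv3 differed by -0.04 ± 0.14 (SE, adjusted P = 0.877). Both turned above 0 without control 3 and after centring on the median of detected probes, Ndufa3 also without case 1 and Ndufv3 also in the 3 quantile-normalized settings and when its probes were averaged. A second, dimmer Ndufv3 probe gave 0.34, and this was the widest gap between probes of 1 gene. For 27 genes with more than 1 tested probe the gap had a median of 0.08, and in 2 genes the probes differed in direction.

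Complex III had a lower mean in 9 of 10 genes with a median of -0.28, or -0.11 after quantile normalization, and 4 of the 10 were lower at an unadjusted P of at most 0.05, against 13.6% of all genes. Uqcrfs1, the Rieske iron-sulfur protein, was at 4.75, 4.56 and 4.83 in the control samples and 4.40, 3.98 and 4.45 in the case samples and differed by -0.44 ± 0.18 (SE, adjusted P = 0.189). Uqcr11, a small subunit, was at 5.59, 5.37 and 5.59 in the control samples and 5.13, 5.05 and 5.23 in the case samples, a difference of -0.38 ± 0.14 (SE, adjusted P = 0.165). Uqcrq and the core protein Uqcrc1 followed with differences of -0.36 ± 0.14 (SE, adjusted P = 0.180) and -0.37 ± 0.15 (SE, adjusted P = 0.193), and in all 4 genes the groups were apart. Cyc1, the cytochrome c1 subunit, was at 3.94, 4.49 and 4.18 in the control samples and 4.02, 4.03 and 3.996 in the case samples, and the spread of its control values was wider than its difference of -0.18 ± 0.17 (SE, adjusted P = 0.486). Cycs, the soluble carrier cytochrome c, was at 5.09, 5.28 and 5.26 in the control samples and 4.79, 5.04 and 5.17 in the case samples, so that the groups overlapped at a difference of -0.21 ± 0.16 (SE, adjusted P = 0.386). In a limma fit over all probes a second, dimmer Cycs probe gave -0.53 ± 0.16 (SE, adjusted P = 0.134), with no overlap. Uqcrb differed by -0.16 ± 0.14 (SE, adjusted P = 0.455). After quantile normalization the differences of Cyc1 and Uqcrb lay just above 0, at 0.00134 and 0.00621. Uqcrh, the hinge protein, was the 1 gene of this complex with a higher mean, by 0.05 ± 0.15 (SE, adjusted P = 0.829), a direction that was turned by the 3 quantile-normalized settings, by normexp with the 75th percentile and without case 3. A second Uqcrh probe, also above background on all 6 arrays, gave -0.003.

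Complex IV had a median of -0.14 over 15 genes, the nearest to 0 of the 5 complexes, but in the 3 quantile-normalized settings the median of complex I lay nearer to 0 (-0.08 against -0.11 after quantile normalization). Without case 2 the median of complex IV was -0.07, and without case 3 it was -0.22. Of its genes 1 (6.67%) was lower at an unadjusted P of at most 0.05, against 13.6% of all genes, and this was Cox4nb, which is no subunit of the complex. The complex holds isoform pairs of which 1 is made in most tissues and the other in few. Cox6a1, the isoform of most tissues, was at 8.39, 8.22 and 8.40 in the control samples and 7.96, 8.07 and 8.21 in the case samples, and its groups were apart at a difference of -0.26 ± 0.14 (SE, adjusted P = 0.279), which was -0.53 after quantile normalization and -0.59 after normexp with the 75th percentile. Cox4i1, the common form of the regulatory subunit 4, was at 7.46, 7.44 and 7.59 in the control samples and 7.31, 7.24 and 7.41 in the case samples, again without overlap, and differed by -0.18 ± 0.13 (SE, adjusted P = 0.403). Its counterpart Cox4i2, a form known from lung and from low oxygen, was dim at -1.57, -2.06 and -2.08 in the control samples and -1.60, -0.63 and -1.67 in the case samples. The higher mean of Cox4i2, 0.60 ± 0.31 (SE, adjusted P = 0.250), rested on case 2, since the other case values lay among the control values. Cox6b2, known from testis, was at -1.29, -1.27 and -1.25 in the control samples and -0.98, -0.84 and -1.18 in the case samples and was the only gene of the 87 with all case values above all control values, at 0.27 ± 0.14 (SE, adjusted P = 0.262), while Cox6b1 differed by -0.10 ± 0.16 (SE, adjusted P = 0.693). Cox7a1, the heart and muscle form, differed by -0.20 ± 0.17 (SE, adjusted P = 0.467) and Cox7a2 by -0.14 ± 0.17 (SE, adjusted P = 0.600), and Cox8a by -0.05 ± 0.13 (SE, adjusted P = 0.820). Cox6b1 and Cox7a2 turned above 0 in the 3 quantile-normalized settings, as Cox8a did after centring on the median of detected probes, and Cox7a1 was at -0.35 without case 2 and at -0.08 without case 3.

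Cox5b, a nuclear subunit on the matrix side, was at 5.51, 5.46 and 5.61 in the control samples and 5.21, 5.20 and 5.37 in the case samples, a difference of -0.27 ± 0.14 (SE, adjusted P = 0.246) without overlap. The gene with the largest decrease under the name rule of this complex, Cox4nb at -0.31 ± 0.13 (SE, adjusted P = 0.198), is Emc8 in RefSeq, a subunit of an endoplasmic reticulum membrane complex and no part of complex IV. Atp5s and Atp5sl are likewise Dmac2l and Dmac2 in RefSeq. Over the 78 tested genes that remain without these 3, Cox7a2l, Cycs and the 4 Ndufaf genes, 74 were lower, and the median was -0.21.

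Cox6a2 and Cox8b are forms of striated muscle. Of 12 markers of that tissue 4 were tested, and only Nppa was above background on all 6 arrays. Actc1, cardiac actin, was well above background on the 3 case arrays and on no control array and was at least 9.57-fold higher there, and Nppa differed by 2.94 ± 0.27 (SE, adjusted P = 0.0288). Myl2 and Myl3 were above background on the 3 case arrays and on 1 control array. Actc1, Myl2 and Myl3 thus entered the test through the case arrays alone, which fixes their direction. Cox6a2 was above background on 0 case arrays and 1 control array and Cox8b on none, and Ckm, Mb and Myh6 were above background on none. Cox8c and Cox7b2, testis forms, and Ndufa4l2 were above background on no array. The part of RNA from muscle, T cells, macrophages or plasma cells in the differences of the 87 genes was not tested.

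Complex V had a lower mean in 16 of 17 genes with a median of -0.21, or -0.13 without case 2, and 4 genes (23.5%) were lower at an unadjusted P of at most 0.05, against 13.6% of all genes. Among the F1 subunits, which hold the catalytic sites, Atp5a1 (α) was at 6.16, 6.23 and 6.22 in the control samples and 5.91, 5.55 and 5.98 in the case samples. It differed by -0.39 ± 0.16 (SE, adjusted P = 0.191), with no overlap. Atp5b (β) was at 7.33, 7.46 and 7.50 in the control samples and 7.16, 7.15 and 7.42 in the case samples, and its groups overlapped at -0.19 ± 0.15 (SE, adjusted P = 0.410). Atp5d (δ) was the 1 gene with a higher mean, by 0.04 ± 0.14 (SE, adjusted P = 0.878), which turned below 0 without control 1 and after normexp with the 75th percentile. Atp5l and Atp5o, of the membrane part and the stalk, differed by -0.35 ± 0.14 (SE, adjusted P = 0.190) and -0.31 ± 0.13 (SE, adjusted P = 0.194). The other tested Atp5l probes gave -0.23 to -0.54.

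Atp5g1, Atp5g2 and Atp5g3 encode the same mature subunit c of the rotor behind different import sequences. Atp5g3 was at 6.06, 5.92 and 6.08 in the control samples and 5.71, 5.49 and 5.73 in the case samples, a difference of -0.37 ± 0.14 (SE, adjusted P = 0.173). Atp5g1 was at 6.00, 6.00 and 6.19 in the control samples and 6.00, 6.02 and 6.06 in the case samples, a difference of -0.03 ± 0.13 (SE, adjusted P = 0.887), and Atp5g2 differed by -0.21 ± 0.18 (SE, adjusted P = 0.448). The mean of Atp5g1 was higher in the case samples in the 3 quantile-normalized settings, after centring on the median of detected probes and without control 3. A second Atp5g2 probe gave -0.02. The log2 ratio of Atp5g3 to Atp5g1 within an array, which does not move with the scaling of the array, was 0.11, -0.03 and -0.07 on the control arrays relative to their mean and -0.25, -0.49 and -0.29 on the case arrays. The mean ratio differed by -0.34, with an SD of 0.09 in the control and 0.13 in the case samples (n = 3 each; exact permutation P = 0.1, two-sided, the smallest that 3 against 3 allow; 0.333 after adjustment over 5 isoform pairs). This pair was chosen after its values were seen. The ratio of Cox4i2 to Cox4i1 was higher by 0.78 (exact permutation P = 0.2), that of Cox6b2 to Cox6b1 by 0.38 (exact permutation P = 0.2), and those of Atp5g2 to Atp5g1 and Cox7a1 to Cox7a2 had exact permutation P values of 0.6 and 0.9.

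The promoters were searched for motifs that genes of the respiratory chain are known to share. Nuclear respiratory factor 1 (NRF1), ETS factors such as GABP, and YY1 are known to act on such genes, and their core letters GCATGCGC, CCGGAAG and AAGATGG were looked for on both strands in windows from 250 bases before to 50 after the gene start (RefSeq, GRCm38.p6). Windows were found for 75 of the 92 genes, 81 in all. The NRF1 letters were in 14.8% of them, against 2.71% of all 32851 windows in the table and 5.13% of the windows of tested genes. The ETS letters were in 21.0%, against 8.86% and 17.6%, and the YY1 letters in 16.0%, against 6.34% and 7.30%. The median difference was -0.24 for the 12 tested genes with the NRF1 letters and -0.20 for 61 without, -0.22 and -0.21 for ETS, and -0.18 and -0.22 for YY1. In Cox6a1 and Atp5g2 the NRF1 letters match both strands at overlapping places, of which 1 is marked. A match of letters is a description and not a binding site. Below are stretches of 60 bases before the start of genes described above, 5′ to 3′ on the strand of the gene, with the motif on either strand in capitals. They are shown because these genes stand for each of the 5 complexes and include Ndufa8, among the largest decreases, and Uqcrh, with a higher mean on the probe used.
Sdhb promoter, NRF1 motif, chr4:140961191-140961250, plus strand: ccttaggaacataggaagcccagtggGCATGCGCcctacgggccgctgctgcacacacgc
Sdhd promoter, ETS motif, chr9:50603862-50603921, minus strand: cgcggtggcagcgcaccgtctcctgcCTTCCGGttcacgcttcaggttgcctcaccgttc
Ndufa8 promoter, NRF1 motif, chr2:36049339-36049398, minus strand: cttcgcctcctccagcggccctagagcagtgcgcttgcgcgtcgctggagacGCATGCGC
Cycs promoter, NRF1 motif, chr6:50566596-50566655, minus strand: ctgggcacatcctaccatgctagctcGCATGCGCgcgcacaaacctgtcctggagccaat
Uqcr11 promoter, ETS motif, chr10:80406854-80406913, minus strand: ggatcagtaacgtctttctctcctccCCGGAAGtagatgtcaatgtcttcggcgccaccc
Uqcrh promoter, ETS motif, chr4:116075071-116075130, minus strand: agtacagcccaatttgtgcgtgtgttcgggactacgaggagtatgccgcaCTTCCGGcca
Cox6a1 promoter, NRF1 motif, chr5:115349085-115349144, minus strand: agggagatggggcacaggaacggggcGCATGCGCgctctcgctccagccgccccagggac
Atp5g2 promoter, NRF1 motif, chr15:102671054-102671113, minus strand: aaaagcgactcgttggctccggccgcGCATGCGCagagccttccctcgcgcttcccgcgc

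Nrf1 itself was at 2.13, 2.03 and 2.08 in the control samples and 2.17, 1.70 and 2.24 in the case samples, a difference of -0.04 ± 0.18 (SE, adjusted P = 0.885). Gabpa, the ETS subunit of GABP, was at 0.61, 0.49 and 0.82 in the control samples and 1.02, 0.93 and 0.86 in the case samples with all case values above the control values, a difference of 0.29 ± 0.15 (SE, adjusted P = 0.245). Among the 15 tested regulators of mitochondrial transcription and respiratory genes, 2 (13.3%) were lower and 0 higher at an unadjusted P of at most 0.05, a share near the 13.6% of all genes that were lower. They were Esrra, the estrogen-related receptor α that acts with PGC-1 coactivators, at -0.46 ± 0.16 (SE, adjusted P = 0.149), and Yy1 at -0.35 ± 0.13 (SE, adjusted P = 0.160). Tfam, which packs and transcribes mitochondrial DNA, differed by -0.16 ± 0.15 (SE, adjusted P = 0.498), and the coactivator Ppargc1a was above background on no array.

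The subunits that mitochondrial DNA itself encodes went the other way. The array carried 12 of them, 7 of complex I, cytochrome b (CYTB) of complex III, 3 of complex IV and ATP8 of complex V, and all 12 had a higher mean in the case samples, with a median of 0.50. At an unadjusted P of at most 0.05, 10 were higher (83.3%) against 11.6% of all genes, and in 11 the case values lay above all control values, against 14.7% of all genes. After normexp with the 75th percentile 4 were higher at that P, and the median was 0.19. Of the 12, 4 lay at levels from 7 to 8 and 4 above 8, where 34.4% and 6.15% of all genes were lower. The medians over all genes there were 0.08 and 0.37. None of the 12 passed the adjusted P in limma, the smallest being 0.095. With a trend and robust estimation 8 did, with array weights 10 and after normexp with the 75th percentile 3. In these settings 755, 4479 and 6469 of all genes passed. Only ND6 passed the 2-fold thresholds. The direction of the list was kept under all 20 alternatives, with 10 to 12 genes higher, the exceptions being CYTB in the 3 quantile-normalized settings, ND1 and ND2 after normexp with the 75th percentile, and ND1 without control 1.

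The 3 core subunits of complex IV, which hold its catalytic centre, differed by 0.55 to 0.98. COX1 was at 9.10, 9.20 and 9.09 in the control samples and 9.87, 10.47 and 9.73 in the case samples, a difference of 0.89 ± 0.21 (SE, adjusted P = 0.107), and COX2 was at 8.55, 8.68 and 8.65 in the control samples and 9.50, 10.09 and 9.24 in the case samples, a difference of 0.98 ± 0.23 (SE, adjusted P = 0.106). In both, case 2 was the highest array and the control values lay close together. COX3 differed by 0.55 ± 0.14 (SE, adjusted P = 0.118). After quantile normalization the differences were smaller, 0.35 for COX1, 0.52 for COX2 and 0.18 for COX3. ND6, the only subunit read from the light strand, was at 0.41, -0.15 and 0.28 in the control samples and 1.15, 1.75 and 0.89 in the case samples and differed by 1.09 ± 0.26 (SE, adjusted P = 0.108). ND4L was at 7.12, 6.78 and 6.92 in the control samples and 7.77, 7.73 and 7.58 in the case samples, with 0.76 ± 0.15 (SE, adjusted P = 0.0954), and ATP8 differed by 0.55 ± 0.13 (SE, adjusted P = 0.110). CYTB was at 8.47, 8.58 and 8.59 in the control samples and 8.97, 8.98 and 8.81 in the case samples, a difference of 0.37 ± 0.13 (SE, adjusted P = 0.159). ND1 was at 4.71, 5.06 and 5.04 in the control samples and 5.19, 4.87 and 5.05 in the case samples, and its groups overlapped, at 0.11 ± 0.17 (SE, adjusted P = 0.682).

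The array files place 7 of these probes on the mitochondrial genome of mm9 and 5 on chromosome 1, where a near-identical nuclear copy of mitochondrial DNA lies, and a probe cannot tell the copies apart. The median difference was 0.42 over the 7 and 0.55 over the 5. The probes of genes with the largest differences and of ND1, the smallest, are given here with their place, 5′ to 3′ as the files list them.
COX1 probe, chrM:6650-6709, plus strand: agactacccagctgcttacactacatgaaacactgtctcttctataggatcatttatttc
COX2 probe, chr1:24621739-24621798, minus strand: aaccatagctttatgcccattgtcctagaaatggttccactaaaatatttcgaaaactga
ND6 probe, chrM:13552-13611, minus strand: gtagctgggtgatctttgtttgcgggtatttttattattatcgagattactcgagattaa
ND4L probe, chr1:24619243-24619302, minus strand: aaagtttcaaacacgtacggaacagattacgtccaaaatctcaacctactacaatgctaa
ND1 probe, chrM:2898-2957, plus strand: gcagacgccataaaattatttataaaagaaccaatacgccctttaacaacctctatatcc

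**Figure D2:**
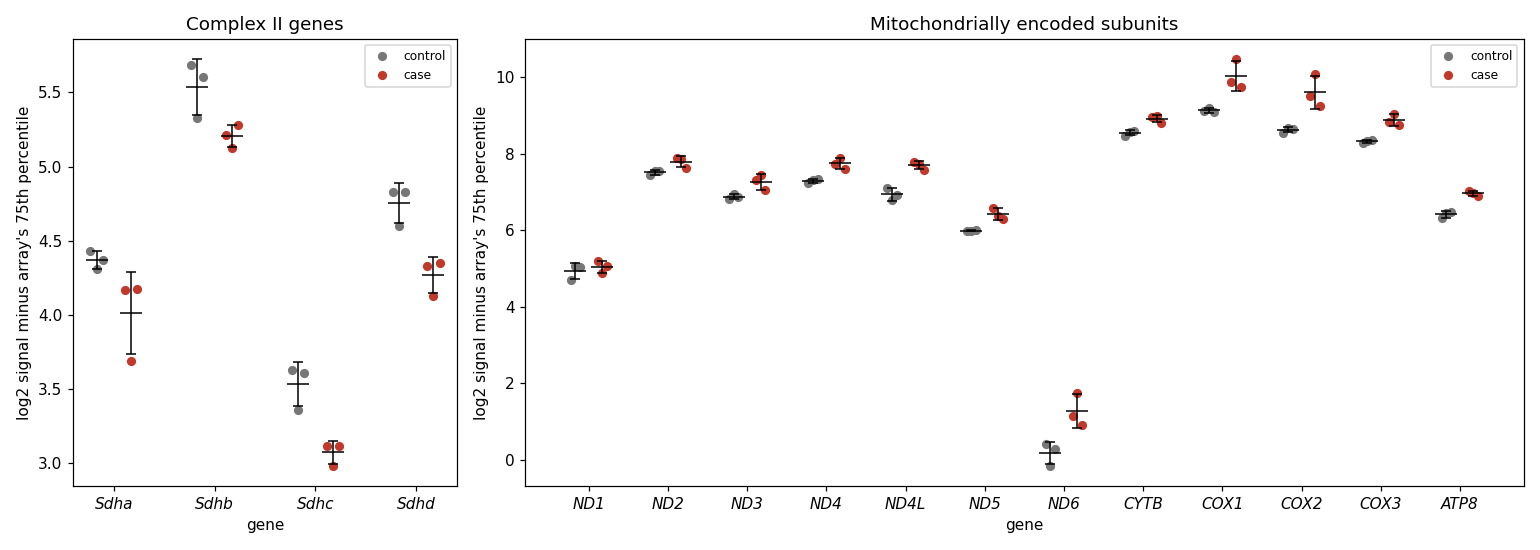
Log2 signal minus the 75th percentile of the array for the 4 complex II genes and the 12 mitochondrially encoded subunits, 1 point per array, with the mean and SD (n = 3) of each genotype as bars. The case points lie below the control points in all 4 complex II genes and above them in 11 of the 12 mitochondrially encoded genes, ND1 being the exception.

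The 2 sets of subunits were set against each other within each array, where a constant scaling of the array cancels. A difference that moves with level does not cancel. The mitochondrially encoded genes had a median level of 7.42, against 5.10 for the 87 nuclear genes. Over all genes the median difference was -0.21 from level 5 to 6, 0.08 from 7 to 8 and 0.37 above 8. The part of level in the values below was not tested. The median of the 12 mitochondrially encoded genes, each relative to its control mean, minus the same median of the 87 nuclear genes was -0.09, 0.11 and -0.04 on the control arrays. On the case arrays it was 0.76, 0.91 and 0.46. Every case array thus lay above every control array, also in complex I alone (0.65, 0.89 and 0.40), complex III (0.72, 0.78 and 0.48), complex IV (0.87, 1.61 and 0.63) and complex V (0.81, 0.92 and 0.52). The difference between the 2 list medians was 0.71 on the log2 scale and lay between 0.44 and 0.84 over the 20 alternatives, with 0.45 after quantile normalization.

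**Figure D3:**
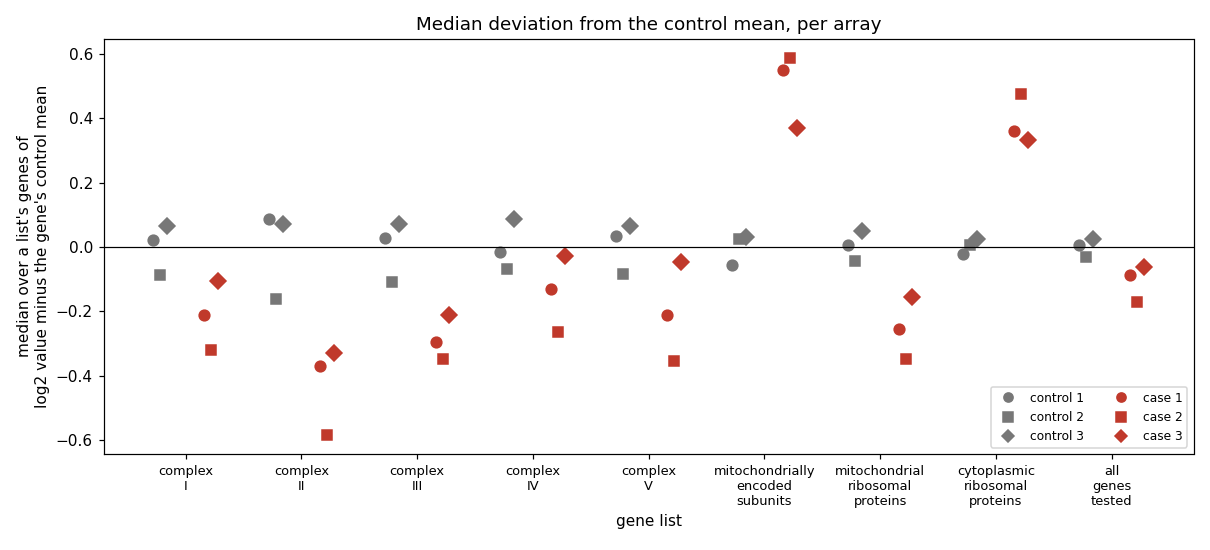
Median over the genes of a list of the log2 value minus the control mean of the gene, 1 point per array, for the 5 complexes, the mitochondrially encoded subunits, 2 ribosomal lists and all genes tested. The 3 case arrays lie below the control arrays for complexes I, II and III and above them for the mitochondrially encoded subunits, where they reach 0.55, 0.59 and 0.37.

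The difference between genotypes moved with the level of a gene over the whole array, and the genes of the 5 complexes were bright, with a median level of 5.10 against 0.84 for all genes. Between levels 4 and 5 the median difference was -0.25 over all 1217 genes and -0.28 over 19 genes of the complexes, and between 5 and 6 it was -0.21 and -0.20. In these ranges the complexes did not stand out. From 2 to 4 the median difference was -0.24 over all genes and -0.18 over 13 genes of the complexes. Above a level of 6 the median was 0.15 over all 1149 genes and -0.18 over 22 genes of the complexes, of which 21 were lower. This range pools unlike levels. From 6 to 7 the medians were -0.09 over all genes and -0.20 over 13 genes of the complexes. From 7 to 8 they were 0.08 and -0.14, the latter over 7 genes. Above 8 they were 0.37 over 439 genes and -0.23 over 2 genes of the complexes. Without the complexes, the mitochondrially encoded and the cytoplasmic ribosomal genes the median above a level of 6 was 0.13 over 1042 genes. The 10 mitochondrially encoded genes above a level of 6 had a median of 0.50. After quantile normalization the medians above level 6 were -0.05 for all genes, -0.16 for the complexes and 0.34 for the mitochondrially encoded genes. These are descriptions without a test.

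**Figure D4:**
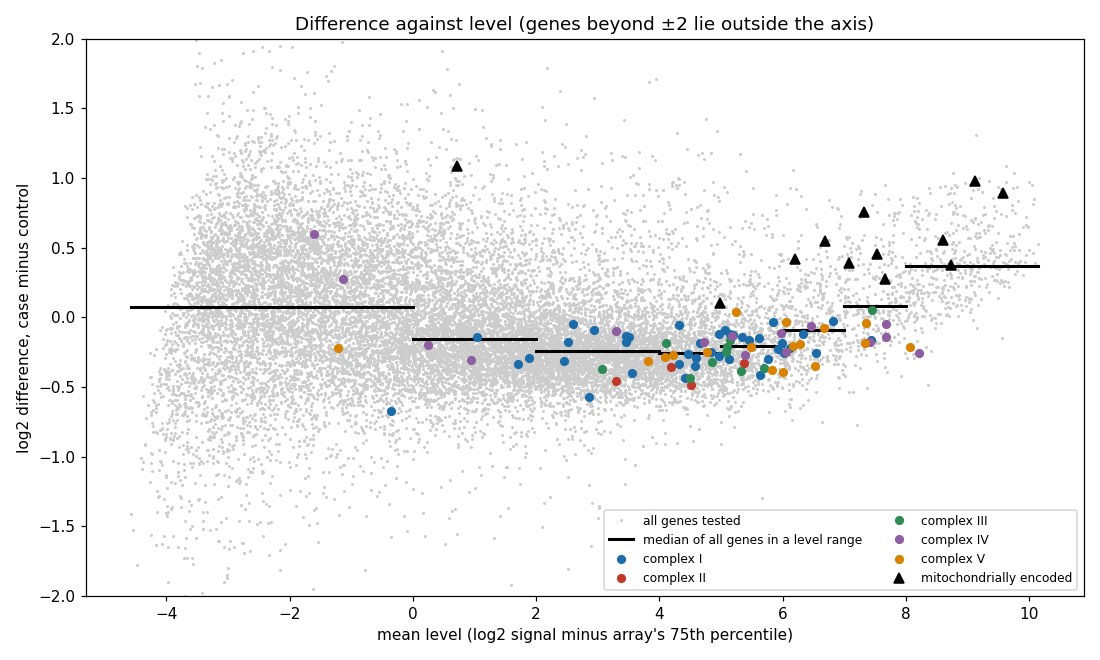
Log2 difference between genotypes against the mean level of a gene (log2 signal minus the 75th percentile of the array) for all genes tested in grey, the 87 genes by complex in colour and the 12 mitochondrially encoded genes as triangles; black bars are medians of all genes in a range of levels, and 53 genes lie outside the axis. Between levels 2 and 6 the coloured points lie around the bars, and above 7 they all lie below them, where the bars rise to 0.37.

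Other nuclear genes of mitochondria had lower means in the case samples by similar amounts, as had most genes at levels from 2 to 6. The median level of the mitochondrial ribosomal proteins was 3.19. From level 2 to 4 the median difference over all genes was -0.24, with 80.9% of them lower. Of 75 tested mitochondrial ribosomal proteins 73 had a lower mean, with a median of -0.26 that was -0.11 after quantile normalization and -0.52 after normexp with the 75th percentile, and 12 (16.0%) were lower at an unadjusted P of at most 0.05, near the 13.6% of all genes. Mrpl37 and Mrpl22, of the large subunit, had the largest decreases in that list, -0.60 ± 0.19 (SE, adjusted P = 0.140) and -0.47 ± 0.14 (SE, adjusted P = 0.131). Of 23 tested assembly factors with other names, 20 had a lower mean with a median of -0.24, and 6 (26.1%) were lower at that P, against the same 13.6%. Tmem70, needed to assemble the ATP synthase, was at 2.43, 2.47 and 2.44 in the control samples and 1.96, 1.82 and 1.88 in the case samples, a difference of -0.56 ± 0.13 (SE, adjusted P = 0.105). Sdhaf2, which loads flavin onto Sdha, differed by -0.43 ± 0.19 (SE, adjusted P = 0.201), and Sdhaf1 by 0.02 ± 0.13 (SE, adjusted P = 0.913). Cox10, a heme enzyme, had the largest increase of that list, at 0.51 ± 0.35 (SE, adjusted P = 0.362), which rested on case 3.

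Synthesis of coenzyme Q had a median of -0.40 over 12 tested genes, 11 of them with a lower mean and 4 (33.3%) lower at an unadjusted P of at most 0.05, against 13.6% of all genes. The largest decreases were Pdss2, a subunit of the enzyme that makes the side chain, at -0.55 ± 0.16 (SE, adjusted P = 0.123), and Coq7, a hydroxylase of the ring, at -0.50 ± 0.17 (SE, adjusted P = 0.147). Of 7 other entry points to coenzyme Q, 5 were lower and 2 higher. Etfb, of the electron transfer flavoprotein, differed by -0.41 ± 0.14 (SE, adjusted P = 0.149) and Dhodh, of pyrimidine synthesis, by -0.40 ± 0.15 (SE, adjusted P = 0.164). Gpd2, the glycerol 3-phosphate shuttle enzyme, was at -0.59, -0.61 and -0.67 in the control samples and -0.15, -0.10 and -0.39 in the case samples, and so was higher without overlap, by 0.41 ± 0.14 (SE, adjusted P = 0.154). All 9 tested carriers, porins and uncoupling proteins were lower, with a median of -0.32 at a median level of 5.24. From level 5 to 6 the median over all genes was -0.21, with 79.4% of them lower. Ucp2, an uncoupling protein of immune cells, differed by -0.57 ± 0.20 (SE, adjusted P = 0.155) and Vdac3, a porin of the outer membrane, by -0.41 ± 0.15 (SE, adjusted P = 0.164).

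The cytoplasmic ribosomal proteins, which are bright too, were higher in 75 of 81 tested genes with a median of 0.39, but this direction was lost after quantile normalization, with a median of -0.02. Their pseudogenes and the S6 kinases were left out. The largest increases were Rps12 and Rps24, at 0.97 ± 0.24 (SE, adjusted P = 0.113) and 0.93 ± 0.24 (SE, adjusted P = 0.115). Under the same quantile normalization the mitochondrially encoded subunits kept a median of 0.34, with 11 of 12 higher.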

How the data were processed

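Total RNA of sorted PC B1a cells was labelled with Cy3 and hybridized to Agilent mouse arrays. The authors deposited spot intensities from Agilent Feature Extraction 10.7.1.1 (per the labels), which are background subtracted and unscaled between arrays, beside raw mean and background intensities and other quality marks per spot. The deposited table of log2 values has sorted columns that differ by at most 0.000545, so it is quantile normalized. The methods name a log2 transformation and GeneSpring, and do not name the normalization.

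Here the log2 intensity of each non-control spot was centred on the 75th percentile of its array, outlier spots (163 to 251 per array) were dropped, and spots were averaged per probe. Testing required all 3 arrays of 1 or both genotypes to be well above background. limma 3.58.1 in R 4.3.3 (lmFit, eBayes, no covariates) gave P values for 18235 genes, adjusted over all of them by Benjamini-Hochberg, and the fit was tested on simulated data. A "lower" or "higher" gene without its P is a difference of means only. The number of arrays limits the precision. P values measure the spread between pools of mice.

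Where no control array was above background, a fold is a lower bound. It was taken against the control mean after raising each array to its lowest well-detected signal. Probe positions are those of the files (mm9), and all 92 genes were matched to RefSeq by accession. Named genes are all of complex II, the 2 largest increases and decreases of the other complexes, fixed isoform sets and core genes, and the 2 largest changes of each list, with others named to complete a group. Genes and lists were chosen with earlier results of these data known. Some genes enter the counts but are not reported here. Alternatives covered scaling, background correction, the deposited log2 values, filters, probe choice, the methods' t-test, eBayes settings, array weights, a replicate block and single arrays left out.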

Additional observations from a re-analysis of the deposited data

How the results depend on the processing

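The median of the 87 genes and of each complex stayed below 0, and that of the mitochondrially encoded subunits above 0, under all 20 alternatives. The counts at P up to 0.05 moved most. The limits are the 3 arrays of a genotype, the dimmer case arrays, and differences that are small and move with level and scaling. Quantile normalization gave 7 lower genes at P up to 0.05 (8.05%, against 10.8% of all genes), complex I -0.0783, complex II -0.22, complex III -0.11, the mitochondrially encoded median 0.34, the cytoplasmic ribosomal median -0.0247, Atp5g1 0.0751, CYTB -0.0314, Cox6b1 0.085, Cox7a2 0.0303, Cyc1 0.00134, Ndufv3 0.0757, Uqcrb 0.00621 and Uqcrh -0.0699. Centring on the median of detected probes gave 5 lower genes at P up to 0.05 (5.75%, against 8.44% of all genes), 1 higher gene at P up to 0.05, complex I -0.0945, complex IV -0.0481, the mitochondrially encoded median 0.59, Atp5g1 0.0594, Cox8a 0.042, Ndufa3 0.0651 and Ndufv3 0.0559. Normexp with the 75th percentile gave 41 genes with adjusted P under 0.05, 63 lower genes at P up to 0.05 (72.4%, against 27.9% of all genes), 2 higher genes at P up to 0.05, the median of all complexes -0.50, complex I -0.49, complex II -0.68, complex III -0.61, complex IV -0.44, complex V -0.54, the mitochondrially encoded median 0.19, 4 higher mitochondrially encoded genes at P up to 0.05, Atp5d -0.31, ND1 -0.24, ND2 -0.021 and Uqcrh -0.29. Normexp with quantile normalization gave complex II -0.21, complex III -0.12, the mitochondrially encoded median 0.35, the cytoplasmic ribosomal median -0.0261, Atp5g1 0.0677, CYTB -0.0408, Cox6b1 0.11, Cox7a2 0.0475, Cyc1 0.0136, Ndufv3 0.0763, Uqcrb 0.00506 and Uqcrh -0.0826. The deposited log2 values gave 7 lower genes at P up to 0.05 (8.05%, against 10.8% of all genes), complex I -0.082, complex II -0.22, complex III -0.11, the mitochondrially encoded median 0.33, the cytoplasmic ribosomal median -0.0476, Atp5g1 0.0695, CYTB -0.0333, Cox6b1 0.0861, Cox7a2 0.0274, Ndufv3 0.0695, Uqcrb 0.00346 and Uqcrh -0.0739. No filter on dim probes gave 3 genes past the 2-fold thresholds (where 10641 of all genes passed), 4 lower genes at P up to 0.05 (4.35%, against 3.45% of all genes) and 3 higher genes at P up to 0.05. The methods' t-test gave 30 lower genes at P up to 0.05 (34.5%, against 13.0% of all genes). A trend with robust estimation gave 25 lower genes at P up to 0.05 (28.7%, against 16.4% of all genes). Array weights gave 13 genes with adjusted P under 0.05, 32 lower genes at P up to 0.05 (36.8%, against 26.0% of all genes) and 1 higher gene at P up to 0.05. Averaging the probes of a gene gave Ndufv3 0.15. Where arrays were left out in turn, the ranges were as follows: lower genes at P up to 0.05 2 to 15, higher genes at P up to 0.05 0 to 1, genes without overlap 40 to 64, Atp5d -0.0423 to 0.0941, Atp5g1 -0.0649 to 0.0344, ND1 -0.00807 to 0.19, Ndufa3 -0.0703 to 0.0101, Ndufv3 -0.10 to 0.0103, Uqcrh -0.0127 to 0.13. The lower counts at P up to 0.05 were 2 without control 3, 4 without case 1 and 5 without control 1, and the genes without overlap were 63 without control 2 and 64 without case 3. Other medians that moved by over 1.5 times stayed within the spread between arrays. They were the median of all complexes -0.11 under quantile normalization, the median of all complexes -0.12 under centring on the median of detected probes, the median of all complexes -0.12 under normexp with quantile normalization, the median of all complexes -0.12 under the deposited log2 values, complex I -0.0964 under normexp with quantile normalization, complex IV -0.0714 without case 2, complex IV -0.22 without case 3, complex V -0.13 under quantile normalization, complex V -0.12 under centring on the median of detected probes, complex V -0.12 under normexp with quantile normalization, complex V -0.14 under the deposited log2 values and complex V -0.13 without case 2. The cause of the changes was not tested. For 41 single genes, 657 of 820 values kept their direction and their side of P 0.05, 82 lost it, 42 gained it and 39 changed direction, in 13 genes.

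The replicate numbers of both genotypes were also used as a replicate block. Deviations of same-numbered samples correlated at 0.19, 0.0565 and 0.0944. The labels do not say whether the numbers pair the samples, and these values cannot decide it. With the replicate block 14 genes were lower at P up to 0.05, the median was -0.21 and no gene passed the adjusted P.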
